A study of Rattus norvegicus with 18 samples.

Results

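The 7 mitochondrially encoded subunits of respiratory complex I were examined in rat gastrocnemius, a calf muscle. They were taken by Ensembl identifier from the count tables as Nd1 (ENSRNOG00000030644), Nd2 (ENSRNOG00000031033), Nd3 (ENSRNOG00000033615), Nd4l (ENSRNOG00000031053), Nd4 (ENSRNOG00000029707), Nd5 (ENSRNOG00000029971) and Nd6 (ENSRNOG00000029042), which is 7 of the 32882 genes listed. The tables give identifiers without symbols, so these names rest on the rule by which the genes were chosen. All 7 passed the filter on low counts in both tables, among 13138 genes tested for HCR and LCR and 13478 for the other groups.

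Complex I takes electrons from NADH, passes them to ubiquinone and pumps protons across the inner mitochondrial membrane. Its mitochondrially encoded subunits all sit in the membrane arm, where Nd2, Nd4 and Nd5 are the antiporter-like proton pumps, Nd1 forms part of the ubiquinone-binding site, and Nd3, Nd4l and Nd6 are small subunits near that junction. The mitochondrial genome is transcribed as long precursors that are cut into single messages, with Nd6 encoded on the light strand and the others on the heavy strand, and Nd4l and Nd4 share 1 message. Working muscle draws much of its ATP from this chain, and endurance training is known for raising mitochondrial content in it.

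RNA-seq libraries were made from male rats of N:NIH-derived lines bred in opposite directions, with 1 library per rat, 3 rats in each of 6 groups and 18 libraries in all. The HCR (high capacity) and LCR (low capacity) runners, of generation 33, were bred for untrained running capacity and were not trained. High response trainers (HRT) and low response trainers (LRT), of generation 15, were bred for the gain in running capacity with training and served as untrained controls, though they too took the running tests, first at 10 to 12 weeks of age. HRTT and LRTT rats came from these response lines and completed 8 weeks of treadmill training with 3 sessions a week, and muscle of the response lines was taken 48 hours after the last running test. The founder stock was genetically mixed, so rats of 1 group are not identical.

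Depth, as the total count of a library, was 31869042 to 42172690 for HCR and LCR and 25084058 to 41446415 for the response lines. The labelled tissue was not checked against muscle markers, since the identifiers were not paired with symbols. In a bulk sample, fewer mitochondria-rich fibres and less mitochondrial RNA per fibre cannot be told apart. Levels below are in CPM, the count divided by library depth after TMM scaling, computed separately for the 2 tables, so that HCR and LCR levels are not strictly on the scale of the others.

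The 7 transcripts together took between 2.65% (LRTT replicate 3) and 5.82% (LCR replicate 3) of all counts of a library. Their share was 4.14% to 4.56% in HCR and 3.97% to 5.82% in LCR. It was 2.99% to 4.47% in HRT, 2.80% to 4.36% in LRT, 2.73% to 3.74% in HRTT and 2.65% to 4.30% in LRTT. The groups overlapped in each pair that the study compared. Within a library, Nd1, Nd2 and Nd5 supplied most of these reads, with 20.7% to 30.1% for Nd1, 36.9% to 50.4% for Nd2 and 19.1% to 25.2% for Nd5. Nd6 held 6.28% to 10.3%, Nd3 1.00% to 2.39% and Nd4l 0.763% to 1.21%. These shares are of counted reads and were not divided by transcript length, so they do not rank the genes by abundance.

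**Figure D1:**
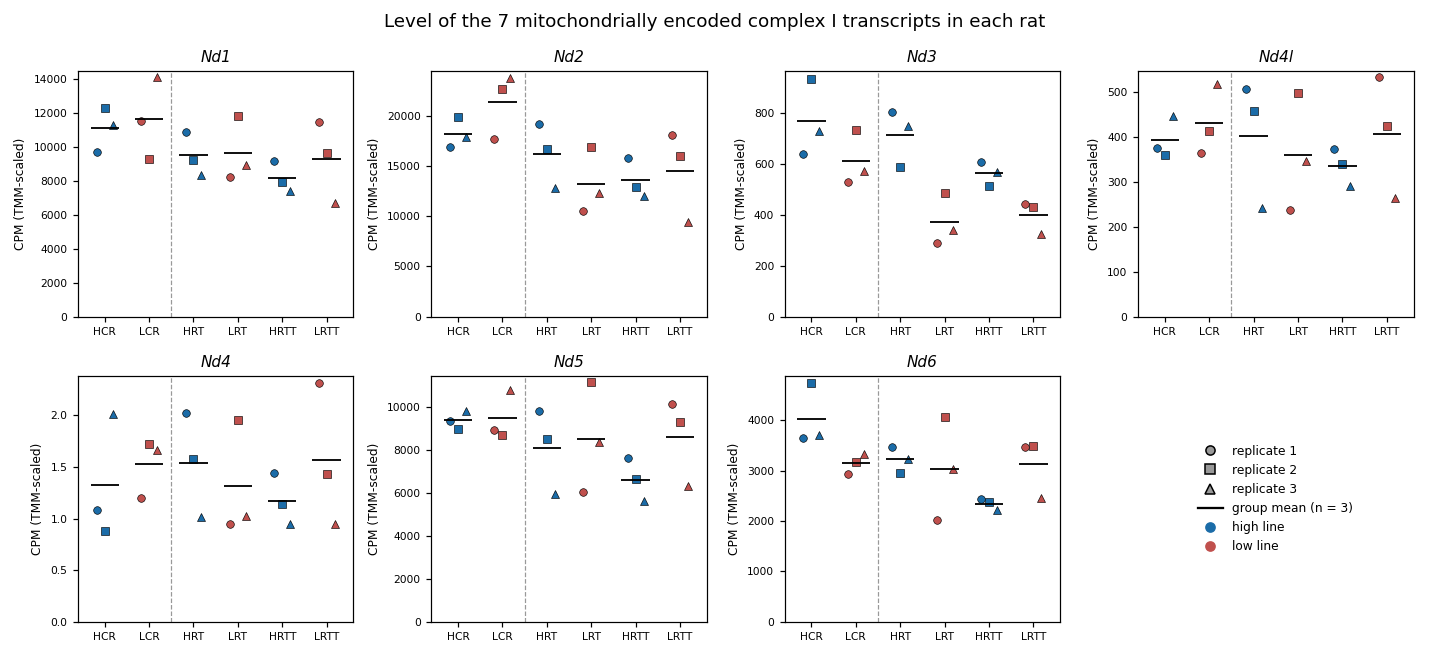
Level of each of the 7 transcripts in each rat, in TMM-scaled CPM on a linear axis from 0; symbols mark the replicate number, the horizontal line is the mean of the 3 rats, and the dashed line separates the 2 count tables. Nd3 lies at 589 to 804 CPM in HRT and 289.6 to 487 CPM in LRT without overlap, while most other transcripts overlap between the lines.

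The gene labelled Nd4 was almost empty. Nd4, the antiporter-like subunit in the middle of the membrane arm, had 27 to 86 reads per library, against 8315 to 20849 for Nd4l, the shorter reading frame on the same message. Its counts were 38, 27 and 86 in HCR and 43, 51 and 67 in LCR. They were 65, 56 and 35 in HRT, 37, 76 and 44 in LRT, 51, 43 and 31 in HRTT and 74, 35 and 36 in LRTT. Per 1000 Nd4l reads there were 2.44 (95% exact Poisson interval 1.61 to 3.55, HCR replicate 2) to 4.50 Nd4 reads (3.60 to 5.56, HCR replicate 3), with a median of 3.53 over the 18 libraries. These intervals cover counting error of the Nd4 reads only. The counts therefore go against reading the Nd4 row as the level of the whole Nd4 message, and its values below describe the reads assigned to that identifier. The counting command gives no option for reads that map to several places, so for all 7 genes any reads shared with a near-identical copy elsewhere in the genome are missing, and their number was not examined.

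**Figure D2:**
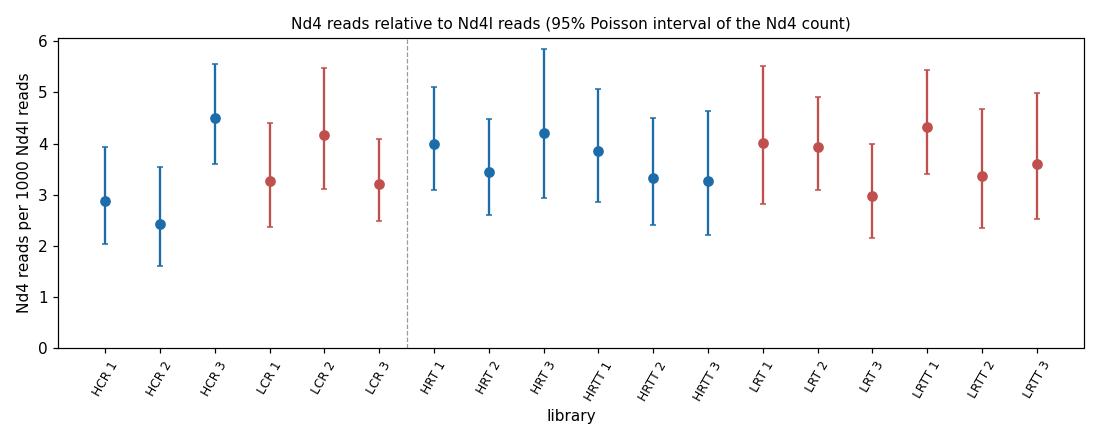
Nd4 reads per 1000 Nd4l reads in each library, with the 95% exact Poisson interval of the Nd4 count; blue marks the high lines, red the low lines, and the dashed line separates the 2 count tables. All 18 libraries lie between 2.44 and 4.50.

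The first comparison asks how muscle differs between rats bred for high and for low running capacity. Nd6 was higher in every HCR rat than in any LCR rat, and the other 6 transcripts overlapped between the lines. Nd6 stood at 3655, 4745 and 3711 CPM in HCR replicates 1, 2 and 3. It stood at 2937, 3168 and 3341 CPM in LCR, where the rats lay close together, while HCR replicate 2 lay well above the other HCR rats. The log2 fold change of Nd6 was 0.36 (SE 0.21, interval -0.13 to 0.85), with an adjusted p of 0.831 by the quasi-likelihood test of edgeR after Benjamini-Hochberg correction, which is not a called difference. Without HCR replicate 2 it was 0.22. Of the genes tested, 12.3% did not overlap between HCR and LCR, so 1 of 7 is near the background. Among the reads of the 7 transcripts, Nd6 made up 8.996, 10.05 and 8.45% in HCR and 6.996, 7.04 and 6.28% in LCR, again without overlap.

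Nd3, the small subunit with the loop that moves as the enzyme switches between its active and inactive forms, was at 639, 935 and 728 CPM in HCR and 527, 736 and 572 CPM in LCR. The lines overlapped, with the highest LCR rat above both lower HCR rats, and the log2 fold change was 0.33 (SE 0.23), or 0.16 without HCR replicate 2. The mean level of Nd1 was 11082 ± 1318 CPM (SD, n = 3) in HCR and 11638 ± 2407 in LCR, a log2 fold change of -0.07 with an interval of -0.64 to 0.50. Among the antiporter-like subunits, the log2 fold change was -0.23 for Nd2 (interval -0.77 to 0.31), -0.01 for Nd5 (interval -0.51 to 0.48) and -0.20 for Nd4 (interval -1.05 to 0.66). Nd4l, which sits between Nd2 and Nd6 in the arm, had -0.13 (interval -0.60 to 0.33). Single rats moved these values: without LCR replicate 3, 5 of the 7 log2 fold changes were above 0 in place of 2. Nd4 was at -0.64 without HCR replicate 3 and at 0.02 without HCR replicate 2. With edgeR, 0 of the 7 passed both thresholds, an adjusted p below 0.05 and a fold over 1.5, against 0.0304% of all genes tested. DESeq2 called 0, against 0.594%. At an unadjusted p under 0.05 there were also 0 of 7 by edgeR, against 6.55%, and 0 by DESeq2, against 6.92%.

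The second comparison asks how the response lines differ without training. Nd3 was higher in every HRT rat than in any LRT rat, and the other transcripts overlapped. It stood at 804, 589 and 749.6 CPM in HRT and 289.6, 487 and 341 CPM in LRT. The lowest HRT rat lay above the highest LRT rat by a margin narrower than the range within either line. The log2 fold change was 0.94 (SE 0.20, interval 0.51 to 1.37), a 1.92-fold difference. Adjusted over all genes by the quasi-likelihood test of edgeR and Benjamini-Hochberg, p was 0.500, so Nd3 was not called, although only 0.0742% of genes tested had an unadjusted p as small. DESeq2's Wald test called it, with a log2 fold change of 0.95 and an adjusted p of 0.00470, against 0.148% of all genes called by that tool. The 2 tools thus gave log2 fold changes that differed by less than the SE, and opposite calls.

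For the other 6, HRT and LRT lay within -0.07 (Nd5) to 0.29 (Nd2) of each other on the log2 scale. Without LRT replicate 2 all 6 were above 0, up to 0.64, and without LRT replicate 1 they ran from -0.27 to 0.15. Nd2 was at 19214, 16761 and 12811 CPM in HRT and 10517, 16968 and 12296 CPM in LRT, with an interval of the log2 difference of -0.27 to 0.86. Nd6 was spread widely in LRT, at 2015, 4065 and 3032 CPM, around an HRT range of 2958 to 3481. By edgeR 0 of 7 members were called, against 0.00742% of all genes. At an unadjusted p under 0.05 there was 1 of 7, Nd3, against 9.56%, and by DESeq2 also 1, Nd3, against 10%. Non-overlapping groups were found for 1 of 7, Nd3, against 16.2%, again near the background.

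The third comparison sets the trained rats of the response lines against each other. Nd3 was again higher in every rat of the high line, and Nd6 was lower in every rat of the high line. Nd3 was at 609, 515 and 569 CPM in HRTT and 442, 431 and 326 CPM in LRTT. The log2 fold change of Nd3 was 0.50 (SE 0.20), with an adjusted p of 0.825 by the quasi-likelihood test of edgeR after Benjamini-Hochberg correction. Nd6 was at 2444, 2385 and 2216 CPM in HRTT and 3473, 3486 and 2457 CPM in LRTT. LRTT replicate 3 barely exceeded the highest HRTT rat, and the other LRTT rats lay far above it. The log2 fold change of Nd6 was -0.42 (SE 0.22), with an adjusted p of 0.882 by edgeR.

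The remaining 5 transcripts had lower means in HRTT than in LRTT and overlapped. Without LRTT replicate 1, 4 of the 7 log2 fold changes were above 0 in place of 1. Nd5, the antiporter-like subunit at the far end of the arm, averaged 6629 ± 1002 CPM (SD, n = 3) in HRTT and 8603 ± 2019 in LRTT, a log2 fold change of -0.38 with an interval of -0.94 to 0.19. Nd1 had -0.18, Nd2 -0.09, Nd4l -0.28 and Nd4 -0.41 on the same scale. edgeR called 0 of 7 members, against 0.00742% of all genes, and DESeq2 called 0, against 0.245%. At an unadjusted p under 0.05 there was 1 of 7, Nd3, by edgeR, against 5.76%, and 1, Nd3, by DESeq2, against 5.92%. Groups did not overlap for 2 of 7, Nd3 and Nd6, against 10.9%.

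Taken over both training states, Nd3 was the member on which the response lines differed most. Its log2 fold change between the HRT lines (HRT and HRTT) and the LRT lines (LRT and LRTT) was 0.72 (SE 0.14, interval 0.42 to 1.02). The adjusted p was 0.126 by the quasi-likelihood test of edgeR after Benjamini-Hochberg correction, which misses the threshold, and 0.000260 by DESeq2's Wald test, at a log2 fold change of 0.73. Of all genes tested, 0.193% had an unadjusted p as small in edgeR. The other 6 lay between -0.22 (Nd5) and 0.10 (Nd2). Leaving out single rats changed the sign of Nd2, Nd4l and Nd4, while Nd1, Nd5 and Nd6 stayed below 0 in all 12 such fits. edgeR called 0 of 7, against 0.0668% of all genes, and DESeq2 called 1 of 7, against 0.519%. By edgeR 1 of 7 had an unadjusted p under 0.05, against 10.5%, and by DESeq2 1, against 10.9%, which was Nd3 in both. This comparison shares its libraries with the line comparisons above and adds no rat to them.

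**Figure D3:**
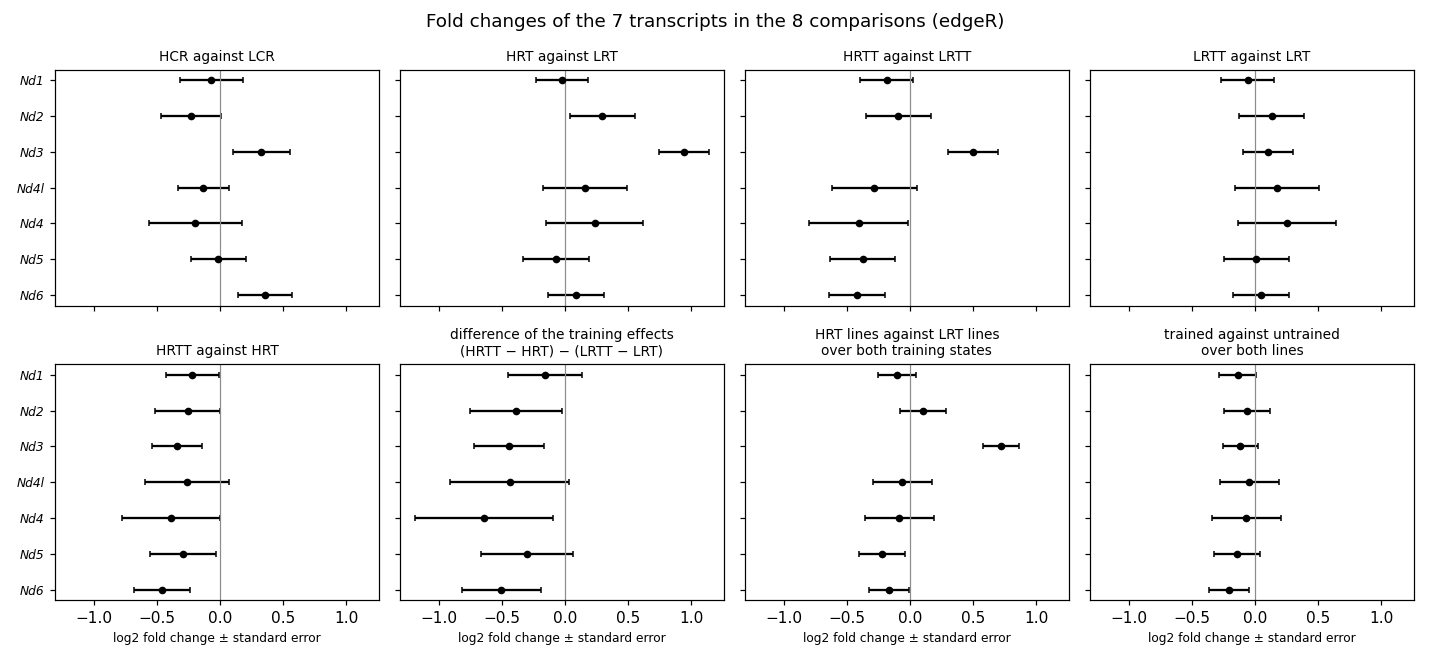
log2 fold change (point) and its standard error (bar) from edgeR for each of the 7 transcripts in the 8 comparisons; positive values are higher in the group named first. Nd3 lies at 0.94 in HRT against LRT and at 0.72 in the lines over both training states, and all 7 lie below 0 in HRTT against HRT.

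Measured against the other members in the same library, the Nd3 difference between the response lines was also present. Nd3 made up 1.80, 1.53 and 2.39% of the reads of the 7 transcripts in HRT and 1.06, 1.08 and 1.02% in LRT. It made up 1.69, 1.67 and 2.02% in HRTT and 1.00, 1.09 and 1.28% in LRTT, so that all 6 rats of the high line lay above all 6 of the low line. Per 1000 Nd1 reads there were 63.8 to 89.7 Nd3 reads in HRT and 35.2 to 41.1 in LRT, and 64.9 to 77.2 in HRTT and 38.4 to 48.7 in LRTT. Per 1000 Nd6 reads the ranges were 199 to 232 in HRT, 112 to 144 in LRT, 216 to 257 in HRTT and 124 to 133 in LRTT. Neither ratio overlapped between the lines. These are the same libraries as above, where Nd3 already separated the lines. How many other genes or ratios separate the lines in this way was not counted. Strand was ignored in counting, so the Nd6 reads cannot be taken as those of the light-strand message alone. In the capacity lines the share of Nd3 was 1.57, 1.98 and 1.66% in HCR and 1.26, 1.64 and 1.08% in LCR, and 1 LCR rat lay within the HCR range. Per 1000 Nd2 reads the capacity lines did not overlap, at 37.8 to 47.0 in HCR and 24.0 to 32.5 in LCR. Relative to Nd1, Nd4l, Nd5 or Nd6 they overlapped.

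**Figure D4:**
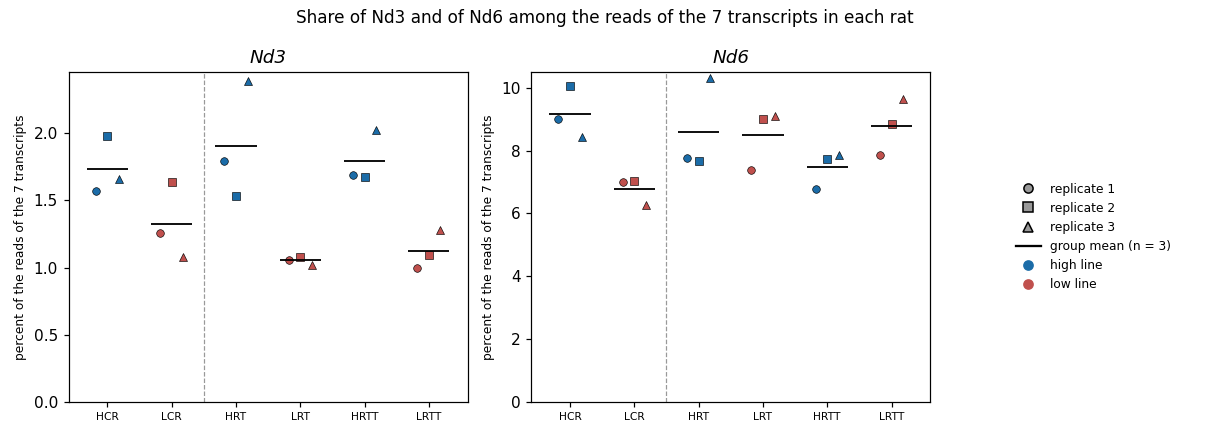
Nd3 (left) and Nd6 (right) as a percent of the reads counted on the 7 transcripts in each rat, on linear axes from 0; symbols mark the replicate number, lines the mean of the 3 rats, and the dashed line separates the 2 count tables. Nd3 lies at 1.02 to 1.08% in LRT and at 1.53 to 2.39% in HRT, and Nd6 lies higher in every HCR rat than in any LCR rat.

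Library depth and a number in the column headings moved with some of these groups. The LRT libraries held 37849730, 40180944 and 41446415 counts, more than any HRT library (32099533 to 36045341), whereas the LRTT libraries (25084058 to 36404512) overlapped the HRTT libraries (33674213 to 38066798). The heading number, whose meaning the file does not give, was 2 in every HRT and LRTT library, 3 in every HRTT library, and 3, 1 and 1 in the LRT libraries in the order of replicates. The groups set against each other in the 4 pairwise comparisons of the response lines shared no number, so number and group cannot be told apart there. Among libraries with the number 2, Nd3 was at 589 to 804 CPM in HRT and 326 to 442 in LRTT, and with the number 3 it was at 515 to 609 in HRTT and 289.6 in the single LRT library. In HCR and LCR the number was 1, 1 and 3 and 3, 1 and 1. Nd6 was at 3655 to 4745 CPM in HCR and 3168 to 3341 in LCR with the number 1, and at 3711 and 2937 with the number 3. The part of depth in the Nd3 values was not tested.

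The effect of training was compared within each response line. In the low line, 6 of 7 transcripts had a higher mean and 1 a lower mean after training, and all lay within -0.06 (Nd1) to 0.25 (Nd4) on the log2 scale. This split turned with single rats: without LRTT replicate 1 it was 1 higher and 6 lower, and the same without LRT replicate 1. The interval was -0.51 to 0.40 for Nd1, -0.55 to 0.57 for Nd5 and -0.56 to 0.91 for Nd4l, and each of these holds 0. Groups overlapped for all 7, against 9.82% of genes whose groups did not. edgeR called 0 of 7, against 0% of all genes, and DESeq2 called 0, against 0.0594%. By edgeR 0 of 7 had an unadjusted p under 0.05, against 4.19%, and 0 by DESeq2, against 4.44%.

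In the high line, all 7 transcripts had lower means after training, between -0.46 (Nd6) and -0.22 (Nd1) on the log2 scale, with a median of -0.29 against -0.01 over all genes tested. Single rats moved this median, to -0.13 without HRT replicate 1 (range -0.41 to -0.06), -0.19 without HRTT replicate 3 and -0.45 without HRT replicate 3, with all 7 below 0 each time. Nd6 did not overlap, at 3481, 2958 and 3236 CPM in HRT and 2444, 2385 and 2216 CPM in HRTT. Nd3 went from 804, 589 and 749.6 CPM in HRT to 609, 515 and 569 CPM in HRTT, where the highest trained rat lay just above the lowest untrained one. Libraries of equal replicate number deviated together in HRT and HRTT, though these were separate rats and no label pairs them. Within these 3 same-numbered pairs, 6 of 7 members were lower in the trained rat each time, against 14.2% of all genes tested. The pairing rests on these same data, and the 6 members are not 6 separate observations. Nd4l was lower in 2 of 3 pairs, being higher in the trained rat of replicate 3. Nd2 averaged 16262 ± 3231 CPM (SD, n = 3) in HRT and 13620.5 ± 1986 in HRTT. Nd1 averaged 9498 ± 1292 CPM in HRT and 8163 ± 915 in HRTT (SD, n = 3). None of these was called by edgeR, with an adjusted p of 1.00 for each of the 7 by Benjamini-Hochberg, and 0% of all genes were called. DESeq2 called 0 of 7 members, against 0.0148%. At an unadjusted p under 0.05 there were 0 of 7 by edgeR, against 2.49%, and 1 of 7, Nd6, by DESeq2, against 2.61%. Groups did not overlap for 1 of 7, also Nd6, against 8.39%. Since the members rose and fell together from rat to rat (below), a common sign over the 7 is not 7 separate observations.

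The difference of the training effects, that of the high line minus that of the low line, was below 0 for all 7, from -0.64 (Nd4) to -0.16 (Nd1), but without LRTT replicate 1 it was 0.03 for Nd1. It was -0.50 for Nd6 (interval -1.19 to 0.18) and -0.44 for Nd3 (interval -1.05 to 0.16), and both intervals hold 0. Without LRT replicate 1 these were -0.28 for Nd6 and -0.29 for Nd3, and without LRT replicate 2 they were -0.77 and -0.68. edgeR called 0 of 7 (DESeq2 also 0, against 0.0223% of all genes), with adjusted p-values from 0.947 to 0.980. edgeR called 0% of all genes, and 0 of 7 had an unadjusted p under 0.05, against 3.72%, and 0 by DESeq2, against 3.78%. For trained against untrained rats over both lines, the 7 log2 fold changes lay between -0.21 (Nd6) and -0.04 (Nd4l), and 3 of the 7 were above 0 without HRT replicate 1, without LRT replicate 2 or without LRTT replicate 3. edgeR called 0 of 7 and 0% of all genes, DESeq2 called 0 of 7, against 0.0371%, and by edgeR 0 of 7 had an unadjusted p under 0.05, against 3.24%, as did 0 by DESeq2, against 3.34%. These contrasts use the same HRT, LRT, HRTT and LRTT libraries as the line comparisons.

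Differences between rats of 1 group were large for some members. In the response lines the within-group SD on the log2 CPM scale was 0.50 for Nd4, 0.48 for Nd4l, 0.36 for Nd5 and 0.36 for Nd2, against a median of 0.24 over all genes tested. Nd6 (0.30), Nd1 (0.27) and Nd3 (0.26) lay closer to that median. In HCR and LCR the SD ran from 0.13 for Nd5 to 0.47 for Nd4, against a median of 0.29. In the response lines some rats were high or low across members. HRT replicate 1, HRTT replicate 1 and LRT replicate 2 were the highest of their groups for 7 of 7 transcripts. LRT replicate 1 and LRTT replicate 3 were the lowest of theirs for 7 of 7. In the capacity lines no rat was highest or lowest for all 7, and HCR replicate 2 was the highest for 4 members and the lowest for 3. Nd4l spanned 238 to 498 CPM in LRT and 264 to 533 CPM in LRTT, a wider range than any difference between the means of the 4 groups.

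The deviations of each rat from its group mean were correlated between members. Over 18 rats and 21 pairs, Pearson's r of log2 CPM ran from 0.447 (Nd3 and Nd4) to 0.970 (Nd4l and Nd5), with a median of 0.781. The 5 heavy-strand transcripts Nd1, Nd2, Nd4l, Nd4 and Nd5 were correlated with each other at 0.655 or more. Nd3, also encoded on the heavy strand, was correlated with Nd6 at 0.836 but with Nd4l at 0.447 and with Nd5 at 0.485. In the 12 libraries of the response lines alone the lowest pair was Nd3 and Nd4l at 0.601. In the 6 HCR and LCR libraries the pattern was not the same, with Nd3 and Nd5 at -0.413 and Nd4 and Nd6 at -0.390. There the pairs among Nd1, Nd2, Nd4l, Nd4 and Nd5 ran from -0.069 (Nd1 and Nd4) to 0.879 (Nd4l and Nd5). These values are descriptions of rats that share a library preparation and a total for all members, and they carry no test.

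**Figure D5:**
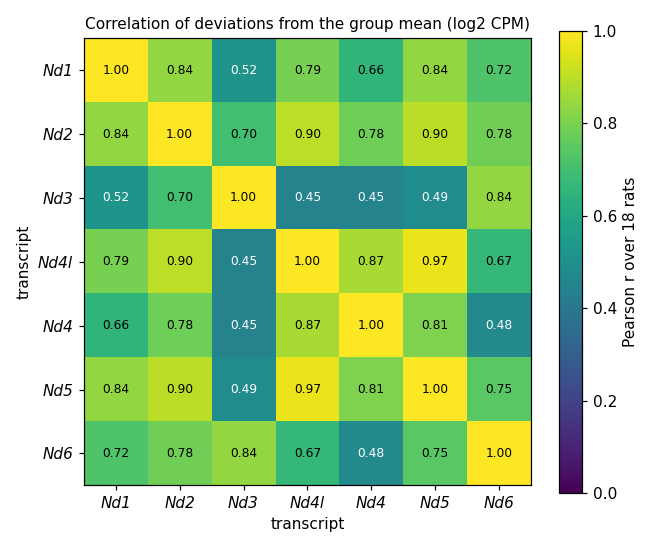
Pearson r between members of the deviations of log2 CPM from the group mean over 18 rats, with both axes listing the 7 transcripts and the colour scale running from 0 to 1. The Nd4l and Nd5 pair has the highest value (0.970), and the row of Nd3 has low values except with Nd6 (0.836) and Nd2 (0.696).

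Of 13013 other genes tested in both tables, the 5 whose log2 CPM followed the mean of the 7 members most closely over the 12 response-line libraries had a Pearson r of 0.934 to 0.975, and 0.283 to 0.812 over the 6 HCR and LCR libraries. The first was ENSRNOG00000031766 (0.975 and 0.669) and the second ENSRNOG00000030700 (0.962 and 0.636). The files do not pair these identifiers with symbols. For the same reason the other mitochondrially encoded genes, the nuclear-encoded subunits of complex I, its assembly factors and the regulators of mitochondrial transcription were not examined as groups.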

How the data were processed

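RNA from gastrocnemius of 18 rats was made into libraries with an Illumina TruSeq kit, which the methods describe as stranded and for mRNA. The authors deposited raw counts per gene in 2 tables, 1 of 6 libraries (HCR and LCR) and 1 of 12, without normalization or pooling. Per the file headers, featureCounts 1.6.4 was run with the Ensembl release 91 annotation of Rnor_6.0, with strand setting 0, so strand was ignored, and with each read counted for every gene it overlapped. Sense and antisense reads across Nd6, and reads in the overlap of Nd4l and Nd4, therefore cannot be told apart. The methods and the labels name TopHat2 (version 2.1.1 in the labels), while the headers name alignments in the form STAR gives. The 5 deposited tables of genes called by the authors, with fold changes and p-values from their own comparisons, were not used.

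Groups and replicate numbers were taken from the labels. The software was edgeR 4.0.16, limma 3.58.1 and DESeq2 1.42.0 under R 4.3.3. The filterByExpr function (count minimum 10) chose the genes tested, library totals were scaled by TMM, and the quasi-likelihood model of edgeR was fitted robustly, with HCR and LCR alone and the other 12 libraries in 1 fit with a term per group. log2 CPM used a prior count of 2. A call required an adjusted p below 0.05 (Benjamini-Hochberg, over all genes tested) and a fold over 1.5. Standard errors are the absolute log2 fold change divided by the square root of F, and intervals are at 95%. By the study's methods the replicates are separate rats. Replicates of 1 group gave chi-square values per gene from 15.5 to 261 over 18 pairs, so none was counted as 1 library deposited again. As a check of the code, the test was also run on counts simulated from the fitted model, which does not show its error rate in these data.

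Same-numbered rats of HRTT and HRT deviated together across genes (r of 0.475, 0.260, 0.383 for replicates 1, 2 and 3, all above 0.1), which meets the rule for pairing. The values reported come from the fit without a replicate block, and the blocked fit is an alternative. The labels and the methods name no shared litter or day. Other comparisons did not meet this rule.

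The 7 genes, the lists and the tests were chosen with earlier results of these data known. The genes named are the 7 members and the 5 genes whose pattern was most like theirs. Of the 32882 identifiers, 0 were found in the reference tables used here, so the gene lists and cell type markers drawn up for this work could not be applied, and no sequence is shown. Alternatives were RLE size factors, the Wald test of DESeq2, keeping genes of low count, no fold threshold, the replicate number as a block, the members left out of library totals, a fit of just the 2 groups compared, the heading number as a covariate or only libraries with heading number 1 (HCR and LCR), and each library left out in turn. The block in a fit of HRTT and HRT alone was added after seeing the data.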

Additional observations from a re-analysis of the deposited data

Results flagged for a closer look

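The Nd6 estimates had opposite signs in the capacity lines and the trained response lines, but neither was distinguishable from no change. Nd6 was picked from the members by a search for differences between groups, so it was not predicted beforehand. It was higher in every HCR rat than in any LCR rat, with a log2 fold change of 0.36 (SE 0.21), and lower in every HRTT rat than in any LRTT rat, with -0.42 (SE 0.22). Leaving out single rats, the first ran from 0.22, without HCR replicate 2, to 0.42, and the second from -0.57 to -0.32. The edgeR intervals were -0.13 to 0.85 for HCR against LCR and -0.90 to 0.07 for HRTT against LRTT, and both include no change. Neither difference was called by edgeR or DESeq2, and the difference between them was not tested, since the 2 tables were made and normalized separately. Of all genes tested, 12.3% did not overlap between HCR and LCR, and 10.9% did not overlap between HRTT and LRTT. The share of genes that separated in opposite directions in these comparisons was not counted.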

How the results depend on the processing

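Of 385 values of the members under alternatives other than leaving out a rat, 2 changed sign, both Nd5 in LRTT against LRT (0.01 as reported), and 3 became called, all of them Nd3. The Wald test of DESeq2 called 1 member in HRT against LRT and 1 in the lines over both training states, where edgeR called 0, and with no filter on low counts edgeR called 1 in the latter (adjusted p 0.0496). For Nd3 in HRT against LRT the log2 fold change was 0.94 to 0.95 and the adjusted p 0.00470 to 0.557, and with each rat left out 0.79 to 1.19 with 0.117 to 0.932. In the lines over both states they were 0.72 to 0.73 and 0.000260 to 0.127. There leaving out single rats gave 0 to 1 called members, the 1 being Nd3 without LRT replicate 2 (0.85, adjusted p 0.0380). Of 630 values with 1 rat left out, 51 changed sign, 15 of them in LRTT against LRT, 11 in trained against untrained and 0 in HRTT against HRT. The reported value lay within its SE of 0 for 50 of these and beyond it for 1: Nd4 in HRTT against LRTT ran from -0.68 to 0.0102, the latter without LRTT replicate 1. With the replicate block, Nd3 in the lines over both states had 0.73 (adjusted p 0.127), Nd6 in HRTT against HRT had -0.46 (adjusted p 0.596) with only those 2 groups in the fit, and 0 members were called in any comparison. The correlations behind the pairing were -0.227, 0.224, 0.222 for HCR and LCR, -0.289, -0.211, 0.0943 for HRT and LRT, 0.431, 0.0145, 0.284 for HRTT and LRTT and -0.250, 0.0190, 0.200 for LRTT and LRT. Leaving the members out of the library totals moved their median correlation from 0.781 to 0.778.

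Counts over all genes depended more on the setting. By edgeR and by DESeq2 respectively, 4 and 78 genes were called in HCR against LCR, 1 and 20 in HRT against LRT, 1 and 33 in HRTT against LRTT, 0 and 8 in LRTT against LRT, 0 and 2 in HRTT against HRT, 0 and 3 for the difference of the training effects, 9 and 70 for the lines over both states and 0 and 5 for trained against untrained. In HCR against LCR, edgeR called 17 with no filter, 0 with the replicate block and 0 with the heading number as a covariate, and 0 to 10 with 1 rat left out. In the lines over both states these were 15 with no filter, 5 with the block and 3 to 18 with 1 rat left out. With only the 2 groups in the fit there were 5 in HRT against LRT and 6 in HRTT against LRTT. The cause of these changes was not tested. In most members, differences of the size seen here were not distinguishable from the spread between the 3 rats of a group. The part of the low Nd4 counts in this was not tested.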
